A study of Mus musculus with 8 samples.

Results

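Nr0b1, Ly6a, Lrrc4c, Vit, Fbxo2, 2610507I01Rik, Car4 and Slc15a2 are 8 of the 24539 genes counted by RNA sequencing in sorted mouse nephron progenitors, the mesenchymal cells of the fetal kidney from which nephrons form. They were selected on their measured counts: each lay near the count floor on one side of the study, KO and Het or WT and SmoM2, and was expressed on the other. The difference between the sides was therefore used to choose them, and it is given below as a description without a test. Of these, 4 (Nr0b1, Ly6a, Lrrc4c and Vit) were high on the WT and SmoM2 side, and 4 (2610507I01Rik, Car4, Slc15a2 and Fbxo2) were high on the KO and Het side. Read library by library, the sides did not overlap in 5 of the 8, and in 33.1% of the 13459 genes tested. Among those 5, only Nr0b1, Ly6a and Vit had at most 3 counts in every library of their lower side. Car4, Slc15a2 and Fbxo2 each had a library on 1 side whose level reached that of the other side.

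The cells came from kidneys at E18.5 and were isolated by FACS. All groups carried Six2GFPcre, a GFP and Cre fusion made where Six2, a gene of nephron progenitors, is active, so the controls carried Cre as well. The KO group was Smo c/c with Six2GFPcre, with both Smo alleles conditional, and the Het group was Smo c/+ with Six2GFPcre. The WT group was Smo +/+ with Six2GFPcre, and the SmoM2 group was Smo +/+ with Six2GFPcre and Rosa26 SmoM2/+, an allele from which Cre releases a constitutively active Smo. Each group had 2 libraries. The labels do not say whether replicates were separate animals, so p-values measure only the spread between these samples, which may be technical.

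Smoothened (Smo) is the membrane protein that passes a Hedgehog signal into the cell. Without a ligand it is held inactive by Patched, and when released it lets the Gli factors turn on genes such as Gli1, Ptch1 and Hhip. In the developing kidney, Hedgehog signalling is best known in the stroma around the ureter and medulla, while nephron progenitors are kept by Six2 and leave that state on a Wnt signal to form the early nephron.

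The counts of the libraries summed to between 4422305 and 10305398, and all KO- and Het-labelled libraries were shallower than all WT- and SmoM2-labelled ones. Smo had 59 and 51 counts in the KO-labelled, 108 and 141 in the Het-labelled, 3893 and 3442 in the WT-labelled and 5915 and 5443 in the SmoM2-labelled libraries. The Smo level of the Het-labelled libraries thus goes against their label, which gives 1 wild-type allele, and libraries are named by their labels throughout. The Hedgehog targets Gli1, Ptch1 and Hhip were lower on the KO and Het side, and all 3 were higher in SmoM2- than in WT-labelled libraries. Six2, which marks the sorted cells, had between 6777 and 15746 counts in every library, and its level was 1480 to 2100 CPM (counts scaled to library size) in KO- and Het-labelled against 1130 to 1330 CPM in WT- and SmoM2-labelled libraries (log2 difference 0.52, SE 0.10, edgeR adjusted p = 0.00231). Without the Het-labelled libraries Six2 did not pass (log2 difference 0.37, edgeR adjusted p = 0.0574). The KO-labelled libraries and replicate 1 of WT and of SmoM2 carried Y-linked transcripts (568 to 2274 counts over 4 genes), while the others had none and carried Xist (9663 to 18238 counts), so sex and genotype cannot be told apart between KO and Het. In bulk samples, fewer cells of a type and less RNA per cell cannot be told apart. Any batch that followed the 2 sides cannot be told apart from Smo either.

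Promoter sequence from RefSeq (GRCm38.p6) was given for 6 of the 8 genes: all but Ly6a and Vit. The stretches upstream of 3 genes are shown because they hold the element nearest the start of Nr0b1 and the short gaps that Fbxo2 and 2610507I01Rik share with a neighbour whose behaviour is compared below. The capitals mark TATAAA, the TATA box, in Nr0b1 and GGGCGG, the GC box, in the others. Each run is written 5′ to 3′ in the direction of the named gene. The first is chrX:86191525-86191763 on the plus strand, which ends at the base before the annotated gene. The second is chr4:148160483-148160620 on the plus strand, the whole gap of 138 bases between Fbxo44 and Fbxo2. The third is chr11:59202432-59202485 on the minus strand, 54 bases from Mrpl55 to the RefSeq start of 2610507I01Rik.
Nr0b1: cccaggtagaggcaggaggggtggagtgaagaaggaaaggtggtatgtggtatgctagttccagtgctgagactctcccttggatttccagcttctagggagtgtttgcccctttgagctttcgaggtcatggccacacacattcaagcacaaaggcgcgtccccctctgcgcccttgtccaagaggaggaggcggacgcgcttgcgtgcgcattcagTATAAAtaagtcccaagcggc
Fbxo2: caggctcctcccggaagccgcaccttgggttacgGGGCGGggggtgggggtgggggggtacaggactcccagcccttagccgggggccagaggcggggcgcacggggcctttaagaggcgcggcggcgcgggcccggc
2610507I01Rik: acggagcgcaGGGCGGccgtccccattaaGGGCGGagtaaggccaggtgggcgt

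The windows of 300 bases, from 250 before to 50 after the RefSeq start, were searched on both strands for 14 motifs. TATAAA lay 32 bases before the RefSeq start of Nr0b1 and 43 bases after that of Car4, and 13.6% of all 32851 windows hold it. The RefSeq start of Nr0b1 lies inside the annotated gene, so the run shown above ends short of it. GGGCGG was present for 2610507I01Rik, Slc15a2 and Fbxo2, against 35.7% of all windows. TGACG, the cAMP response half-site, was in the same 3 windows, against 20.8%. CCACCCA, the core of the site bound by Gli factors, was found only in the window of Fbxo2, 223 bases before the RefSeq start, and 9.3% of windows hold it. That start also lies inside the annotated gene, and this match lies outside the run shown above, on the Fbxo44 side. The longer Gli site GACCACCCA was in none of the 6 windows and in 0.253% of all. The core CCACCCA is part of it, so those 2 searches overlap. TGANTCA, the AP-1 site, matched in the window of Lrrc4c (7.81% of all windows), and CAGGTG, an E-box, in that of 2610507I01Rik (20.2%). The windows were unlike in CpG content: 2610507I01Rik held 25 CpG and Fbxo2 21, Car4 15 and Nr0b1 14, while Lrrc4c held 6 and Slc15a2 5, against a median of 7 over all windows.

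Nr0b1, or Dax1, encodes an orphan nuclear receptor without the usual DNA-binding domain that represses the steroidogenic factor Nr5a1. It lies at chrX:86191764-86195947 on the plus strand (GRCm38). It had 1 and 0 counts in the KO-labelled and 1 and 0 in the Het-labelled libraries. The WT-labelled libraries had 53 and 27 and the SmoM2-labelled 39 and 46. Every KO and Het library was thus at the floor of 3 counts and no library of one side came near the other. The WT and SmoM2 side averaged 4.30 CPM, at least 7.71-fold higher than the KO and Het side, whose floor was 0.557 CPM. Nr0b1 is X-linked. Within WT, the library with Y-linked transcripts was the higher (4.94 against 2.94 CPM), and within SmoM2 the lower (3.99 against 5.32 CPM).

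Ly6a encodes Sca-1, a small GPI-anchored surface protein used to mark blood stem cells, and it lies at chr15:74994877-74998031 on the minus strand. Its counts were 0 and 2 in the KO-labelled, 1 and 1 in the Het-labelled, 79 and 60 in the WT-labelled and 70 and 30 in the SmoM2-labelled libraries. It was at the floor in all 4 libraries of the KO and Het side and averaged 6.13 CPM on the other, at least 11-fold higher. The lowest library on the high side was SmoM2 replicate 2, at 3.47 CPM. Ly6a was the only gene in the table with at most 3 counts in every KO and Het library and at least 3 CPM in every WT and SmoM2 library. Endothelial and blood cells also make Sca-1. The endothelial marker Pecam1 had 0 to 3 counts and the leukocyte marker Ptprc 0 to 1 in every library. The 10 endothelial markers summed to between 12.2 and 16.7 CPM in WT-labelled and between 15.2 and 22.0 CPM in SmoM2-labelled libraries, and to between 35.7 and 45.2 CPM in KO-labelled and between 15.2 and 19.4 CPM in Het-labelled ones. The 8 immune markers summed to between 0.871 and 16.2 CPM in KO-labelled, 4.76 and 5.21 CPM in Het-labelled, 5.55 and 11.9 CPM in WT-labelled and 4.28 and 6.34 CPM in SmoM2-labelled libraries. The part of these cells in the levels of Ly6a was not tested.

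Lrrc4c encodes NGL-1, a leucine-rich repeat surface protein of synapses that binds netrin-G1, and spans chr2:96318169-97631666 on the plus strand. It had 1 and 0 counts in the KO-labelled and 6 and 1 in the Het-labelled libraries. The WT-labelled libraries had 61 and 26 counts and the SmoM2-labelled 131 and 81. The sides did not overlap, and Het replicate 1, at 0.802 CPM, was the only library of its side above the floor. The fitted log2 difference (KO and Het minus WT and SmoM2) was -4.76 (SE 0.53), and it was -6.27 without KO replicate 1 and -5.55 without Het replicate 1. The KO group was at the floor, so these fitted values depend on the default prior count of the edgeR fit, which is not the one used for log2 CPM. With both Het-labelled libraries left out, Lrrc4c was at least 11.9-fold higher in WT and SmoM2 than the floor of KO.

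Vit encodes vitrin, a secreted matrix protein with an LCCL domain and von Willebrand A domains, at chr17:78508064-78627408 on the plus strand. Its counts were 3 and 1 in the KO-labelled, 0 and 0 in the Het-labelled, 30 and 15 in the WT-labelled and 64 and 48 in the SmoM2-labelled libraries. It was at the floor in the whole KO and Het side and averaged 4.13 CPM on the other, at least 7.42-fold higher. The nearest approach was between KO replicate 1 at 0.664 CPM and WT replicate 2 at 1.63 CPM.

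Markers of the stroma and of the ureteric bud moved with these 4 genes in part. Of all genes tested, 21.5% were lower and 22.0% higher on the KO and Het side. Foxd1, which marks the kidney stroma, had 58, 17, 168 and 86 counts on the KO and Het side and 2109, 1574, 3762 and 2602 on the WT and SmoM2 side. Of 7 stromal markers tested, 2 (Foxd1 and Lum) were lower on the KO and Het side and none was higher, with a median log2 difference of -0.20 against 0.01 over all genes tested. Lum did not pass without the Het-labelled libraries (adjusted p = 0.277) or with RPKM-implied library totals (adjusted p = 0.0513). The 8 stromal markers summed to between 76.2 and 593 CPM in KO-labelled, 142 and 311 in Het-labelled, 323 and 489 in WT-labelled and 539 and 666 in SmoM2-labelled libraries. Both ureteric bud markers tested, of 6 listed, were lower on the KO and Het side, with a median log2 difference of -2.84. One of them was Wnt11, a ligand of the ureteric tip, with 14, 5, 9 and 4 counts on the KO and Het side and 105, 69, 236 and 296 on the other (log2 -3.47, SE 0.30, edgeR adjusted p = 9.65e-06). It was also 1.75 higher in SmoM2 than in WT (SE 0.30, edgeR adjusted p = 0.043). The 6 ureteric bud markers summed to between 2.18 and 3.32 CPM in KO-labelled, 1.60 and 1.87 in Het-labelled, 9.80 and 12.4 in WT-labelled and 25.7 and 35.7 in SmoM2-labelled libraries. Wnt11 made up most of the sums in WT- and SmoM2-labelled libraries, and 3 of the 6 markers had at most 3 counts in every library. The part of stromal or ureteric bud cells in the 4 genes was not tested.

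2610507I01Rik is a long noncoding RNA gene at chr11:59199836-59202385 on the minus strand. It had 71 and 56 counts in the KO-labelled, 118 and 84 in the Het-labelled, 12 and 2 in the WT-labelled and 14 and 4 in the SmoM2-labelled libraries. In CPM the KO and Het libraries lay between 12.2 and 15.8 and the WT and SmoM2 libraries between 0.218 and 1.43. The sides did not overlap, and this was the steadiest of the 4 genes on its high side. The log2 difference was 4.11 (SE 0.36), and 4.91 without WT replicate 1.

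Car4 encodes a GPI-anchored carbonic anhydrase of the cell surface, known in the kidney from tubules that reclaim bicarbonate, at chr11:84957786-84966044 on the plus strand. Its counts were 47 and 90 in the KO-labelled, 6 and 36 in the Het-labelled, 1 and 13 in the WT-labelled and 1 and 4 in the SmoM2-labelled libraries. Het replicate 1, at 0.802 CPM, lay below WT replicate 2, at 1.42 CPM, so the sides overlapped by these libraries. The log2 difference was 3.94 (SE 0.71). It was 2.90 without Het replicate 2, 5.27 without WT replicate 2, 4.54 without SmoM2 replicate 2 and 5.0 without both Het-labelled libraries.

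Slc15a2 encodes PEPT2, the proton-coupled transporter that takes up small peptides in the later proximal tubule, at chr16:36750177-36784962 on the minus strand. It had 179 and 138 counts in the KO-labelled and 68 and 125 in the Het-labelled libraries. The WT-labelled libraries had 268 and 7 counts and the SmoM2-labelled 1 and 5. WT replicate 1, at 25 CPM, was above both Het-labelled libraries (9.09 and 21.2 CPM) and below both KO-labelled ones (39.6 and 30.0 CPM), while its replicate was at 0.762 CPM. The log2 difference between the sides was 3.43 (SE 0.81), and 5.46 without WT replicate 1.

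Fbxo2 encodes an F-box protein that binds sugar chains of misfolded glycoproteins and hands them to an SCF ubiquitin ligase, at chr4:148160621-148166424 on the plus strand. Its counts were 6 and 44 in the KO-labelled, 101 and 96 in the Het-labelled, 7 and 3 in the WT-labelled and 1 and 44 in the SmoM2-labelled libraries. KO replicate 1 (1.33 CPM) was low among its side and SmoM2 replicate 2 (5.09 CPM) high among the other, so both sides held a high and a low library. The log2 difference was 2.98 (SE 0.73). It was 5.15 without SmoM2 replicate 2 and 1.97 without KO replicate 2.

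Markers of several cell types moved with these 4 genes in part. Over all genes tested, 22.0% were higher and 21.5% lower on the KO and Het side. Of 8 nephron progenitor markers tested, 6 were higher on the KO and Het side and none lower (median log2 difference 0.70), and 3 without the Het-labelled libraries. Of 8 early nephron markers tested, 6 were higher and none lower (median 1.40), and all 8 without the Het-labelled libraries. These 8 summed to between 1340 and 1640 CPM in KO-labelled but between 493 and 736 CPM in Het-labelled libraries. The sums were 474 to 650 CPM in WT-labelled and 433 to 591 CPM in SmoM2-labelled ones, so the rise was in KO. All 4 erythroid markers tested were higher (median 2.53); they are globin genes whose near-identical copies share reads, and the 6 markers listed summed to between 13.7 and 45.2 CPM in KO-labelled, 19.9 and 24.9 in Het-labelled, 4.10 and 5.23 in WT-labelled and 2.77 and 7.87 in SmoM2-labelled libraries. Of 3 proximal tubule markers tested, 2 were higher and none lower (median 0.90): Lrp2, the endocytic receptor megalin (log2 0.90, SE 0.15, edgeR adjusted p = 0.000714), and Slc5a2, a glucose transporter (log2 1.03, SE 0.19, edgeR adjusted p = 0.00121). Without the Het-labelled libraries Lrp2 did not pass (0.10, adjusted p = 0.744). The 8 proximal tubule markers listed summed to between 59.2 and 59.6 CPM in Het-labelled libraries. Their sums were 25.3 to 31.4 CPM in KO-labelled and 23.1 to 30.0 CPM in WT-labelled libraries, so here the rise was in Het. The part of these cells in the 4 genes was not tested.

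**Figure D1:**
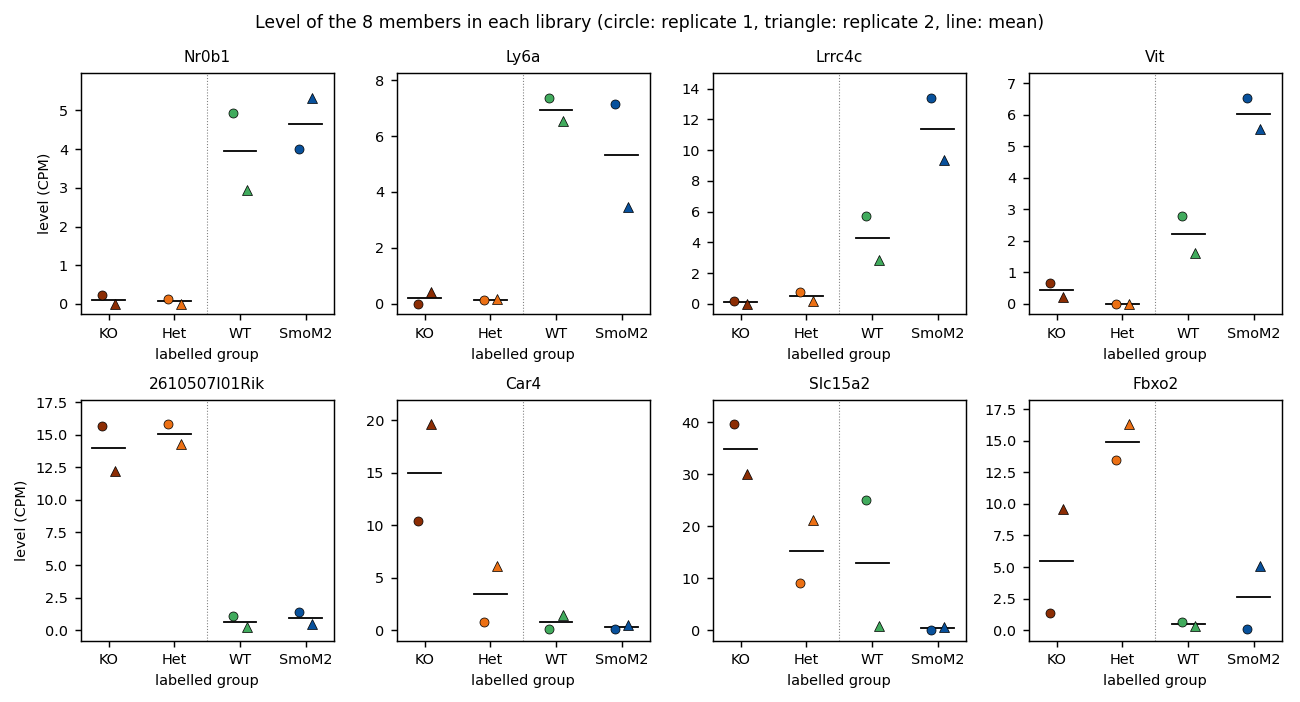
Level of each gene in CPM (linear vertical axis) in the 8 libraries, with KO- and Het-labelled libraries left and WT- and SmoM2-labelled libraries right of the dotted line. Circles are replicate 1, triangles replicate 2 and lines group means; the sides separate for the upper 4 genes and 2610507I01Rik, while Slc15a2 reaches 25 CPM in WT replicate 1 and Fbxo2 5.09 CPM in SmoM2 replicate 2.

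The libraries of the 2 sides did not overlap in 5 of the 8 genes. The same separation was present in 33.1% of the 13459 genes tested, and since this contrast chose the 8 genes, nothing is read from their count. Leaving out WT replicate 1 separated Slc15a2, leaving out Het replicate 1 or WT replicate 2 separated Car4, and leaving out KO replicate 1 or SmoM2 replicate 2 separated Fbxo2. Over all genes tested, 43.5% differed between the sides (edgeR quasi-likelihood test, Benjamini-Hochberg adjusted p under 0.05), 22.0% higher and 21.5% lower on the KO and Het side.

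Averaged over the side where they were high, all 8 genes lay below the median gene tested. Per length, the mean RPKM of the high side was 1.94 for Nr0b1, 4.97 for Ly6a, 1.36 for Lrrc4c and 1.22 for Vit. It was 4.14 for 2610507I01Rik, 6.01 for Car4, 5.0 for Slc15a2 and 6.79 for Fbxo2. The median gene tested had 7.99 RPKM on the WT and SmoM2 side and 8.32 on the KO and Het side. Vit thus stood above 16.2% of the genes tested and Fbxo2 above 44.7%. Single libraries went above 8.32 RPKM: Car4 had 13.0 in KO replicate 2, and Fbxo2 had 8.9 and 10.7 in the Het-labelled libraries.

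KO- and Het-labelled libraries differ in the number of conditional alleles. The rule placed both groups on the same side, so the level of each gene in both was used to choose it, and nothing is read from how many of the 8 passed. With all 8 libraries, none of the 4 genes expressed in KO and Het passed the edgeR test between them, against 9.43% of tested genes. Over all genes tested, 583 were higher and 686 lower in KO. By DESeq2 none of the 4 passed either, and 1 was given no adjusted p. Of the 4, 1 had an unadjusted p under 0.05 in edgeR, as had 27.4% of all genes tested. Nr0b1, Ly6a and Vit had at most 3 counts in all 4 libraries, and Lrrc4c was at the floor in KO and below that floor on average in Het, so no fold is given for these 4. Car4 was 2.17 higher in KO on the log2 scale (SE 0.76, edgeR adjusted p = 0.0925), and both KO-labelled libraries lay above both Het-labelled ones. That difference was 4.18 without Het replicate 2, 1.29 without Het replicate 1, 2.55 without KO replicate 1 and 1.63 without KO replicate 2. It was 2.18 without WT replicate 1 and 2.17 without WT replicate 2. Slc15a2 was 1.22 higher in KO (SE 0.83, edgeR adjusted p = 0.375), also without overlap. Its difference was 0.71 without Het replicate 1, 1.92 without Het replicate 2, 1.0 without KO replicate 1 and 1.4 without KO replicate 2. It was 1.21 without WT replicate 1 and 1.21 without WT replicate 2. Whether Car4 and Slc15a2 passed depended on which libraries were kept. Fits that leave 1 library in a group are given as sizes only. Fbxo2 had a log2 change of -1.44 (SE 0.85, edgeR adjusted p = 0.302), with both KO-labelled libraries below both Het-labelled ones. 2610507I01Rik had one of -0.11 (SE 0.39, edgeR adjusted p = 0.891), with overlapping libraries.

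Markers of the early nephron were among those that moved with Car4 in this contrast, which 9.43% of all genes tested passed. Of 8 tested, 6 rose in KO against Het (among them Lhx1, Pax8, Jag1, Dll1 and Ccnd1) and none fell, with a median log2 change of 1.34 against 0.02 over all genes tested. Lhx1, a transcription factor of the renal vesicle, had 281 and 562 counts in KO-labelled and 35 and 55 in Het-labelled libraries (edgeR adjusted p = 0.00427). The 8 markers summed to between 1340 and 1640 CPM in KO-labelled and between 493 and 736 CPM in Het-labelled libraries. They summed to between 474 and 650 CPM in WT-labelled and between 433 and 591 CPM in SmoM2-labelled libraries. Of 2 loop and distal and 3 endothelial markers tested, 1 each rose in KO against Het (Pou3f3 and Cldn5) and none fell. The 7 loop and distal markers summed to between 9.8 and 10.2 CPM in KO-labelled and between 0.936 and 1.53 CPM in Het-labelled libraries. The 10 endothelial markers summed to between 35.7 and 45.2 CPM in KO-labelled and between 15.2 and 19.4 CPM in Het-labelled libraries. The part of any of these cells in the levels of Car4 was not tested. The 8 proximal tubule markers, given above beside Slc15a2, summed to between 25.3 and 31.4 CPM in KO-labelled, 59.2 and 59.6 in Het-labelled, 23.1 and 30.0 in WT-labelled and 17.7 and 23.0 in SmoM2-labelled libraries. The proximal tubule transporter Slc34a1 had 0 to 6 counts in every library. Their part in the levels of Slc15a2 was not tested.

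SmoM2- and WT-labelled libraries differ in the active Smo allele. Here too the rule placed both groups on the same side, and nothing is read from the number that passed. Of the 4 genes expressed in WT and SmoM2, none passed the edgeR test, against 0.223% of all genes tested (21 higher and 9 lower in SmoM2). None passed by DESeq2, and 2 had an unadjusted p under 0.05 in edgeR, as had 7.7% of all genes tested. Lrrc4c was 1.40 higher in SmoM2 on the log2 scale (SE 0.41, edgeR adjusted p = 0.317). Its libraries did not overlap, at 13.4 and 9.36 CPM in SmoM2-labelled against 5.69 and 2.83 CPM in WT-labelled ones. Vit was 1.43 higher (SE 0.41, edgeR adjusted p = 0.317), at 6.54 and 5.55 against 2.80 and 1.63 CPM, again without overlap. Nr0b1 had a log2 change of 0.23 (SE 0.42, edgeR adjusted p = 0.962) and Ly6a one of -0.38 (SE 0.41, edgeR adjusted p = 0.926), both with overlapping libraries.

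The 4 genes that were chosen for low levels on this side are described without a test. Slc15a2 had a log2 change of -5.25 (SE 1.37), which rested on WT replicate 1: it was -1.18 without that library. Fbxo2 had a change of 2.30 (SE 1.21), which was -2.11 without SmoM2 replicate 2. Car4 had one of -1.34 (SE 1.38), and 2610507I01Rik one of 0.47 (SE 0.67), each with overlapping libraries.

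**Figure D2:**
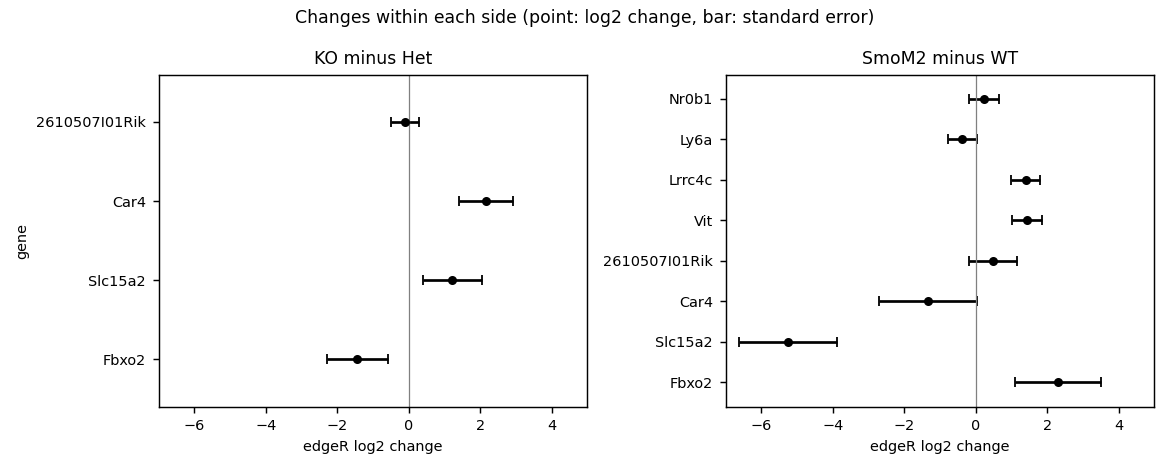
Log2 changes within each side from the edgeR fit (horizontal axis; bars are standard errors): KO minus Het for the 4 genes above the floor there, and SmoM2 minus WT for all 8. Lrrc4c at 1.40 and Vit at 1.43 have standard errors of 0.41, while Slc15a2 at -5.25 has one of 1.37.

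Fbxo2 starts 138 bases from Fbxo44, a related F-box gene that runs the other way. Fbxo44 had 8 and 68 counts in the KO-labelled, 99 and 111 in the Het-labelled, 14 and 7 in the WT-labelled and 13 and 168 in the SmoM2-labelled libraries. Like Fbxo2 it was low in KO replicate 1 and high in SmoM2 replicate 2. Over the 8 libraries, which share their depth and groups, the log2 CPM of the pair had a Pearson r of 0.937, rank 8 among the tested genes that are not members. Its difference between the sides was 1.80 (SE 0.72, edgeR adjusted p = 0.0616). Fbxo6, the next F-box gene, had 82 to 195 counts and an r of 0.653. Disp3, a sterol-sensing membrane protein related to Dispatched, lies 73839 bases on the other side of Fbxo2 and was higher on the KO and Het side (log2 2.27, SE 0.26, edgeR adjusted p = 6.31e-05), with 22, 26, 64 and 54 counts against 16, 10, 15 and 13.

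In GENCODE M21, 2610507I01Rik starts 100 bases from Mrpl55, which encodes a protein of the mitochondrial ribosome and runs the other way. Its RefSeq start lies nearer, and the 54 bases shown above are counted from there. Mrpl55 had 151, 115, 205 and 160 counts on the KO and Het side and 241, 204, 181 and 163 on the other. It was 0.47 higher on the KO and Het side on the log2 scale (SE 0.13, edgeR adjusted p = 0.0118), with an r of 0.81. The noncoding RNA differed by 4.11 on that scale, so the 2 genes that share the gap shown above moved the same way by unlike amounts. The strand setting of the counting is not given in the sources used here. Reads from opposite strands may not be told apart where transcripts of these pairs overlap. In GENCODE M21 no gene of the table overlaps any of the 8. The deposited length of 2610507I01Rik is 2905 bases against a GENCODE span of 2550, so another gene model was counted. Whether that model overlaps Mrpl55 is not known.

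**Figure D3:**
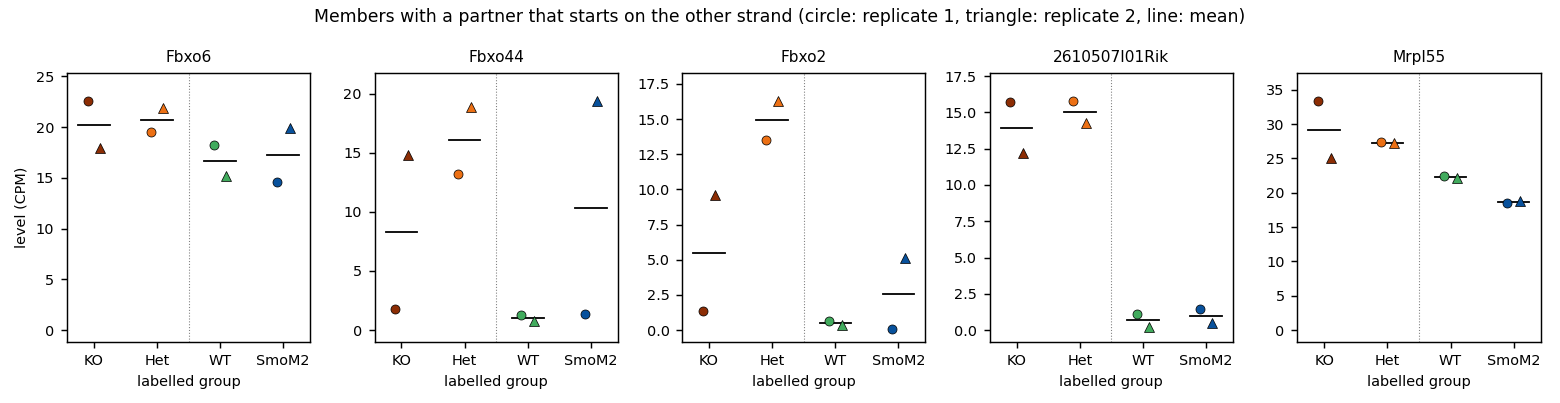
Level in CPM (linear vertical axes) of Fbxo6, Fbxo44 and Fbxo2 and of 2610507I01Rik and Mrpl55 in the 8 libraries; circles are replicate 1, triangles replicate 2 and lines group means. Fbxo2 and Fbxo44 are both low in KO replicate 1 and high in SmoM2 replicate 2, whereas Mrpl55 has 115 counts or more in every library.

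Of the 32 genes listed as the nearest 2 on each side of a member, 19 were tested and 10 differed between the sides, against 43.5% of all genes. The 4 neighbours of Nr0b1 (Samt3, 5430427O19Rik, Mageb4 and Gm41) had no counts. Next to Ly6a, Ly6e had an r of 0.054 with it and a log2 difference of -0.02 (SE 0.13), while Ly6i, Ly6c1 and Ly6c2 had 0 to 2 counts. Ly6 genes are alike in sequence, so the division of reads among them is uncertain. Next to Car4, Usp32 was lower (log2 -1.0, SE 0.10, edgeR adjusted p = 3.06e-05) and Myo19 higher (0.83, SE 0.14, edgeR adjusted p = 0.000834) on the KO and Het side. Fez2, next to Vit, had an r of 0.965 with it and a log2 difference of -0.44 (SE 0.10, edgeR adjusted p = 0.00501). Heatr5b, on the other side of Vit, went the other way, with an r of -0.881 and a log2 difference of 0.79 (SE 0.15, edgeR adjusted p = 0.00174). Iqcb1, next to Slc15a2, had an r of -0.014.

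Relatives and partners of each gene, listed by family and role, were tested between the sides. Over all genes tested, 21.5% were lower and 22.0% higher on the KO and Het side. The counts of this list and of those below stand beside these shares, and no family is read as changed from its count. Of 14 synaptic leucine-rich repeat and netrin-G genes tested, 6 were lower on the KO and Het side (Ntng1, Lrrtm1, Lrrtm2, Flrt3, Lrrc4b and Flrt1) and 2 higher (Lrfn2 and Lrfn4). The median log2 difference was 0.19, against 0.01 over all genes. Ntng1, which encodes netrin-G1, the binding partner of the Lrrc4c protein, had 1 count in each of the 4 KO and Het libraries and 17, 6, 32 and 27 on the other side. It was at least 3.88-fold higher there (edgeR adjusted p = 0.000883). Lrrtm1 and Lrrtm2, synaptic adhesion proteins, were likewise at the floor in KO and Het and at least 3.09-fold and 3.03-fold higher (edgeR adjusted p = 0.00279 and 0.00311). Flrt3, an adhesion protein that also binds FGF receptors, had a log2 difference of -1.65 (SE 0.16, edgeR adjusted p = 2.65e-05). Leaving out the Het-labelled libraries, Lrrc4b (adjusted p = 0.251) and Lrfn4 (adjusted p = 0.128) no longer passed.

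Of 8 genes tested that share LCCL or von Willebrand A domains with Vit or belong to its matrix relatives, 1 was lower on the KO and Het side (Crispld1) and 1 higher (Matn1), with a median of 0.17. Crispld1, a secreted LCCL protein, had 81, 97, 139 and 116 counts against 885, 1027, 1782 and 1680, a log2 difference of -2.81 (SE 0.12, edgeR adjusted p = 1.7e-07). It was also 0.95 higher in SmoM2 than in WT (edgeR adjusted p = 0.0423), the contrast in which Vit was 1.43 higher without passing. Matn1 did not pass without the Het-labelled libraries (0.35, adjusted p = 0.403). Coch, which carries the LCCL domain that Vit shares, had 0 to 3 counts.

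Of 5 partners of Nr0b1 and genes of steroid synthesis tested, 3 were higher on the KO and Het side (Nr5a1, Nr4a1 and Wt1) and 1 lower (Sox9), with a median of 0.26. Nr5a1, whose protein Nr0b1 is known to repress, had 54, 31, 19 and 34 counts on the KO and Het side and 26, 22, 6 and 6 on the other (log2 2.28, SE 0.35, edgeR adjusted p = 0.000474). These are transcript levels, and the part of Nr0b1 in them was not tested. Sox9, a transcription factor of testis and cartilage development, had a log2 difference of -0.55 (SE 0.15, edgeR adjusted p = 0.0112). It also differed within each side, at -0.98 in KO against Het (edgeR adjusted p = 0.0232) and 1.15 in SmoM2 against WT (edgeR adjusted p = 0.0452). Wt1 did not pass without the Het-labelled libraries (0.15, adjusted p = 0.381). Star, the cholesterol carrier of steroid synthesis, had a log2 difference of -0.22 (SE 0.18, edgeR adjusted p = 0.353).

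Of 8 Ly6 and uPAR relatives of Ly6a tested, 1 was lower on the KO and Het side and none higher, with a median of -0.27. That gene was Plaur, the urokinase receptor, with 4, 2, 5 and 8 counts against 41, 45, 78 and 96 (log2 -2.97, SE 0.34, edgeR adjusted p = 7.52e-05). A further 11 of the 21 relatives had at most 3 counts in every library.

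Among 14 carbonic anhydrases and bicarbonate or proton transporters tested, 4 were higher on the KO and Het side (among them Car12, Car14 and Slc4a2) and 3 lower (Car2, Slc4a4 and Slc4a7), with a median of -0.01. Car12, a membrane carbonic anhydrase like Car4, had a log2 difference of 1.20 (SE 0.13, edgeR adjusted p = 5.17e-05), and Car14, also membrane-bound, one of 0.88 (SE 0.26, edgeR adjusted p = 0.0171). The cytosolic Car2 had one of -1.20 (SE 0.39, edgeR adjusted p = 0.026). The bicarbonate transporter Slc4a7 had one of -1.39 (SE 0.11, edgeR adjusted p = 5.77e-06). Without the Het-labelled libraries Car12, Car14, Slc4a4 and Slc4a7 passed, and Car2 (adjusted p = 0.0762) and Slc4a2 (adjusted p = 0.241) did not.

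Of 6 genes tested for peptide transport and brush-border peptidases, 2 were higher on the KO and Het side (Slc15a4 and Ggt1) and 2 lower (Mme and Slc9a3r1), with a median of -0.27. Slc15a4, the lysosomal relative of Slc15a2, had a log2 difference of 0.68 (SE 0.15, edgeR adjusted p = 0.00369), and its adjusted p was 0.0598 without the Het-labelled libraries. Mme, the membrane peptidase neprilysin, went against Slc15a2, with 5, 2, 7 and 13 counts on the KO and Het side and 112, 48, 67 and 55 on the other (log2 -2.72, SE 0.39, edgeR adjusted p = 0.000269). Of 7 sugar-binding F-box relatives and SCF subunits of Fbxo2, 2 were lower on the KO and Het side (Fbxo17 and Cul1) and none higher, with a median of -0.12. Cul1, the scaffold of the SCF ligase, had a log2 difference of -0.49 (SE 0.09, edgeR adjusted p = 0.000994), and Fbxo17 did not pass without the Het-labelled libraries (adjusted p = 0.282).

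**Figure D4:**
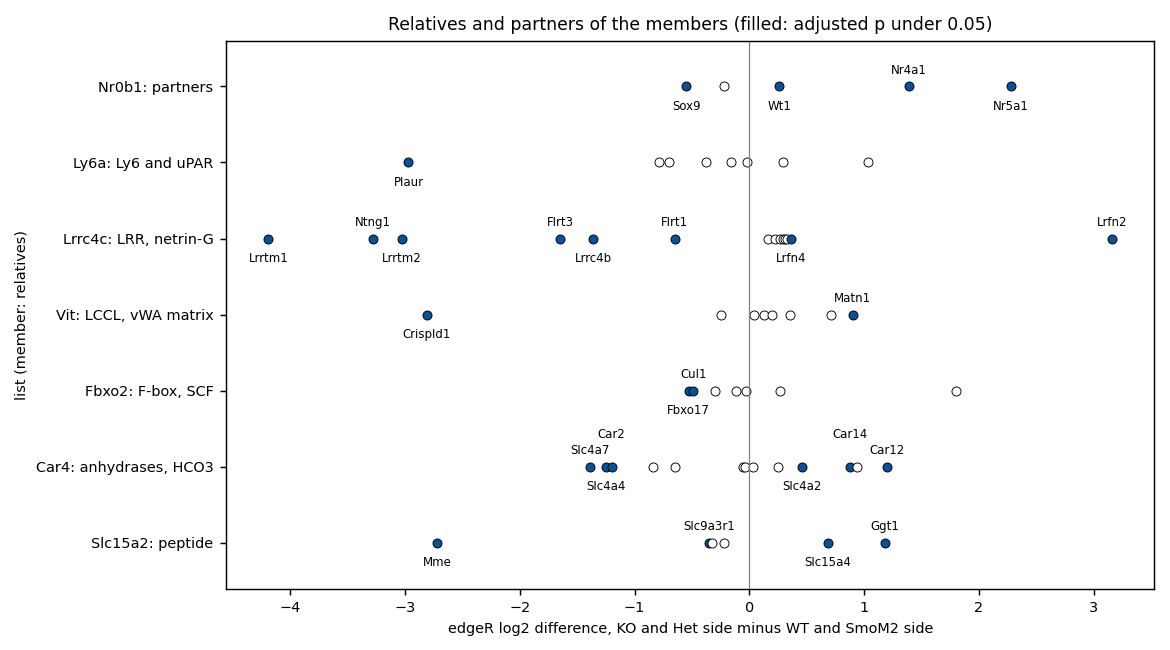
Log2 difference between the sides (horizontal axis, edgeR, KO and Het minus WT and SmoM2) for the tested relatives and partners in 7 lists (vertical axis), of which 1 is not shown; filled points have an adjusted p under 0.05 and are named. Ntng1, Lrrtm1 and Lrrtm2 are at the floor in KO and Het, so their plotted fitted values depend on the default prior count of the edgeR fit. Crispld1 at -2.81, Plaur at -2.97 and Mme at -2.72 lie far to the left in their lists.

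The 8 genes varied together to unequal degrees. Over the 8 libraries, the Pearson r of log2 CPM between pairs of the 4 genes high in WT and SmoM2 ran from 0.845 (Ly6a and Vit) to 0.952 (Nr0b1 and Lrrc4c). Between pairs of the 4 genes high in KO and Het it ran from 0.479 (Slc15a2 and Fbxo2) to 0.736 (2610507I01Rik and Slc15a2). The choice of the genes fixes much of these values, and they are a description. Among the genes most like each member were Tcf25 and Vsir for Nr0b1 (r 0.998 for both), Tfdp2 and Grm8 for Ly6a (0.990 and 0.989), and Tnrc6a and Sfmbt2 for Lrrc4c (0.993 and 0.988). For Vit, Mxi1 had an r of 0.986. For the others they were Rhog and Mlst8 for 2610507I01Rik (0.993 and 0.992), Prim1 and Hey1 for Car4 (0.989 and 0.984), Ctxn1 and Sqrdl for Slc15a2 (0.988 and 0.981) and Tspan14 and Jun for Fbxo2 (0.963 and 0.960). Likeness here is of shape, not size: Tcf25 differed between the sides by -0.59 on the log2 scale, whereas Vsir went from 3, 1, 4 and 2 counts to 54, 31, 42 and 43.

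Other genes had the same on-off shape. With a lower bar of 1 CPM in every WT and SmoM2 library, chosen after the values were seen, 19 genes had at most 3 counts in every KO and Het library, and 3 of them (Ly6a, Nr0b1 and Vit) are among the 8. The other 16 include Atp2b2, a plasma membrane calcium pump, with 0, 2, 2 and 0 counts against 53, 31, 93 and 16, and Grin2c, a glutamate receptor subunit, with 1, 1, 1 and 2 against 28, 13, 46 and 52. They also include Cntn2, a neural adhesion protein, with 0, 1, 1 and 1 counts against 11, 13, 38 and 57. Lrrc4c missed the floor by the 6 counts of Het replicate 1, and the 4 genes high on the KO and Het side had between 13 and 268 counts in their highest library of the other side.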

How the data were processed

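RNA of 8 sorted libraries was sequenced after polyA selection, per the labels' protocols. Per the submitters' processing notes, STAR, featureCounts, Subread and mm10 were used; their versions, the annotation and the strand setting are not given in the sources used here. The deposited table holds raw read counts, RPKM values and a gene length, per the file headers. The listed counts made up 81.1% to 83.3% of the totals that the authors' RPKM values imply. Counts were tested with edgeR 4.0.16 (R 4.3.3): filterByExpr kept 13459 genes, libraries were scaled by TMM, and 1 quasi-likelihood fit gave each of the 4 groups a mean (4 residual degrees of freedom). P-values are two-sided and Benjamini-Hochberg adjusted over all 13459 genes, and 0.05 was the threshold. The SE of a log2 value was derived from it and its F statistic. The side contrast sets the mean of KO and Het against the mean of WT and SmoM2. CPM use the scaled library sizes, and log2 CPM a prior count of 2. A floor of 3 counts per library was used, it covers counting error only, and folds against it are lower bounds. The RPKM values are used only for levels per length. DESeq2 1.42.0, other scalings, no filter, a replicate block, trends over length and GC content, and leaving out libraries were alternatives. Coordinates are GENCODE M21 (GRCm38), the build of the notes.

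The genes named are the 8 members, Smo and Hedgehog targets, members of 18 lists of relatives and cell type markers, the nearest 2 table genes on each side, the 2 tested genes with the highest r to each member, and genes at the floor on 1 whole side. Atp2b2, Grin2c and Cntn2 were named after their values were seen. A few genes that the rule would name are not reported here. The members and lists were chosen with earlier results of these data known. With 2 libraries against 2 no exact permutation test could pass the threshold, and none was made.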

Additional observations from a re-analysis of the deposited data

How the results depend on the processing

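The count of genes called between KO and Het was 1269 and became 2217 with no filter, 613 with a length trend removed, 337 with GC and length trends removed, and 36 (without Het replicate 1) to 1472 with 1 library left out. Between SmoM2 and WT it was 30 and became 356 with no filter, 76 with DESeq2, 54 with the replicate block, 19 with GC and length trends removed, and 8 to 81 (without WT replicate 2) with 1 library left out. Between the sides, 5850 became 4556 to 5497 with 1 library left out and 4240 without the Het-labelled libraries. The cause was not tested, beyond the fewer libraries or other genes that these settings hold. Removal of the GC and length trends and of the Het-labelled libraries was chosen after seeing the data.

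Log2 changes that turned sign when 1 library was left out were, between KO and Het, that of 2610507I01Rik (-0.31 to 0.06). Between SmoM2 and WT they were those of Nr0b1 (-0.08 to 0.66), Ly6a (-0.99 to 0.05), 2610507I01Rik (-0.56 to 2.07), Car4 (-2.62 to 1.41) and Fbxo2 (-2.11 to 3.31). Between the sides no value turned sign. With no filter, Car4, Slc15a2 and Fbxo2 passed between KO and Het, and Lrrc4c and Vit between SmoM2 and WT.

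Replicate numbers are shared by the groups, but no source says that they pair samples. The differences between replicates 1 and 2 correlated across genes at -0.061 (KO and Het) to 0.391 (WT and SmoM2). In WT and SmoM2, replicate 1 carried Y-linked transcripts and replicate 2 Xist, so there the replicate number cannot be told apart from sex. With the replicate block the counts were 1527, 54 and 6030, and Car4 passed between KO and Het (edgeR adjusted p = 0.0106). The 4 shallower libraries are those of KO and Het, so the floor was 0.401 to 0.664 CPM there and 0.280 to 0.347 CPM in the others.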
